A study of Mus musculus with 55 samples.

Results

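Hepatocytes taken from mouse liver after partial hepatectomy (PH, surgical removal of part of the liver) were compared with hepatocytes from normal liver across all genes. The 8 hepatocyte libraries, 4 labelled partial hepatectomy (PH libraries 1 to 4) and 4 labelled normal (normal libraries 1 to 4), are 8 of the 55 libraries of a study of 10 cell populations in normal mice and after PH, and they were chosen by their titles alone. All 8 came from the liver of C57B/L6 mice, and sorted cells went straight into the lysis reagent from which total RNA was extracted for sequencing. The animals carried no transgene or deletion named in the labels. The labels used here give no time after surgery, no sham operation, no age and no sex, and do not say that the libraries of a group came from separate animals, so p-values measure only the spread between these libraries. Levels are FPKM (fragments per kilobase of transcript, scaled to the mapped reads of the library), the authors' deposited values. Differences are PH minus normal on the log2(FPKM + 1) scale, which understates changes of low genes, with the standard error (SE) and the adjusted p of limma, a linear-model test fitted over the 10029 genes that reached 1 FPKM in 4 or more of the 8 libraries. A gene is said to have risen or fallen where that adjusted p was under 0.05.

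Hepatocytes are the parenchymal cells of the liver. They secrete most plasma proteins, detoxify drugs and ammonia, make bile acids and lipids, and are largely quiescent until tissue is lost. After partial hepatectomy, cytokines such as IL-6 and growth factors such as HGF and EGF receptor ligands are known to act on them: STAT3, NF-kB and C/EBP factors drive the acute phase proteins, cyclin D1 takes the cells into G1, E2F factors drive the genes of DNA replication, and mitosis follows.

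Promoters of 5 genes that the results below turn on, 3 of the acute phase and 2 of replication, are printed first because they hold letters that C/EBP or E2F factors are known to bind; other genes of these groups do not, such as Serpina3n and Ung. In RefSeq promoter sequences of build GRCm38.p6, the window of 250 bases before the start is given 5' to 3' on the gene's strand. Capitals mark the C/EBP letters TTGCNNAA in Saa1 (chr7:46742981-46743230, minus strand), Saa2 (chr7:46751583-46751832, plus strand) and Lcn2 (chr2:32387740-32387989, minus strand). In Mcm5 (chr8:75109259-75109508, plus strand) and Mcm6 (chr1:128359706-128359955, minus strand) they mark the E2F letters TTTNNCGC, on either strand, with matches that overlap run together.
Saa1: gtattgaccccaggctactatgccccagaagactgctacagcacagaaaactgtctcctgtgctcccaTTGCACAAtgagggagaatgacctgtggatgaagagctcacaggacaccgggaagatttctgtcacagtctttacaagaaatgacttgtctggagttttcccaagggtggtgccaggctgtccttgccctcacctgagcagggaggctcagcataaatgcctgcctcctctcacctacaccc
Saa2: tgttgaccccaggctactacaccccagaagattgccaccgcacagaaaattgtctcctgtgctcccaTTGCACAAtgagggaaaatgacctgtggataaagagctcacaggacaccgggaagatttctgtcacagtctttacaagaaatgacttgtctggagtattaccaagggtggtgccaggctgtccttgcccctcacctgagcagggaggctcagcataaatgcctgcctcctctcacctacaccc
Lcn2: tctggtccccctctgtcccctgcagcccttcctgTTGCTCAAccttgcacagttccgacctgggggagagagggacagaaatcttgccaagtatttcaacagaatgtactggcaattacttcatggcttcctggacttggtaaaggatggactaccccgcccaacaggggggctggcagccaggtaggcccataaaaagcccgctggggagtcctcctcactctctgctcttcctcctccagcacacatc
Mcm5: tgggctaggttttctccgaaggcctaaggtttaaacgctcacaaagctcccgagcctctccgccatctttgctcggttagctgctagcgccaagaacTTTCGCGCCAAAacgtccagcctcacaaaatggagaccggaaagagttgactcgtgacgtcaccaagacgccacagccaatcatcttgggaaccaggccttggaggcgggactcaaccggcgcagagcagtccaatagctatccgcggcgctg
Mcm6: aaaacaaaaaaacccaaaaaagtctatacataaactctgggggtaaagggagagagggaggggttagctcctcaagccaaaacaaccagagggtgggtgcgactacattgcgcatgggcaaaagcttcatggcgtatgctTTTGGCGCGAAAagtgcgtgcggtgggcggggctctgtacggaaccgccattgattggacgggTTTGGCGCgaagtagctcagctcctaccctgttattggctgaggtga
The 250 bases of Saa1 and Saa2, neighbouring genes on chromosome 7, were 94.8% identical in a global alignment. Their C/EBP letters were the same 8 bases, TTGCACAA, beginning 182 and 183 bases before the start. Neither the STAT letters TTCNNNGAA nor the strict NF-kB form searched were in the windows of Saa1, Saa2 and Lcn2. Over the whole promoter window described below, the STAT letters were in 7 of 26 acute phase genes with an entry (26.9%). They were in 9.6% of 27025 promoters and 8.0% of the tested genes with one. That NF-kB form was rare, in 0.5% of 27025 promoters and 0 of 26 acute phase genes over the whole promoter window given next. Looser NF-kB forms were not searched, so the absence of the strict form does not show that these windows lack NF-kB-like letters. Over the whole promoter window of 250 bases before to 50 after the start, on both strands, the C/EBP letters were in 14 of the 26 acute phase genes with an entry (53.8%) against 12.2% of 27025 genes with a promoter in the table and 10.5% of the tested genes with one. Among the acute phase genes that rose they were in 10 of 15, against 28 of 131 of all genes called higher (21.4%). These 10 include the close copies Saa1 and Saa2. The E2F letters were in 17 of 41 S phase genes (41.5%) against 5.9% of all and 10.1% of the tested genes. The CHR letters TTTGAA, known from mitotic genes, were in 30 of 43 mitosis genes (69.8%) against 20.2% of all and 14.2% of the tested genes. NF-Y letters CCAAT stood in 16 of 17 cholesterol genes (94.1%), 31 of 43 mitosis genes (72.1%) and 26 of 41 S phase genes (63.4%). They stood in 3 of 26 acute phase genes (11.5%), in 41.1% of all and in 43.3% of the tested genes. SRE letters TCACNCCAC were in 1 of 17 cholesterol genes (5.9%) against 1.4% of all and 1.5% of the tested genes. These are counts of letters and not of bound sites, and the lists were drawn up with the known biology of these factors in mind.

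Before the results, the libraries themselves need a description. The summed FPKM separated them into 4 libraries of larger sum (normal 1 and 4, PH 3 and 4, from 1133792 to 1203197) and 4 of smaller sum (normal 2 and 3, PH 1 and 2, from 960918 to 1053328). The first principal component, 44.2% of the variance, separated these sets, and within each set the PH libraries lay to the same side of the normal ones. The second, 34.1%, separated PH from normal libraries. PH library 3 correlated more closely with normal library 1 (Pearson r 0.962 across genes) than with PH library 1 (0.896). Relative to the larger-sum libraries, the smaller-sum libraries were higher in long transcripts: the median log2 difference was -0.25 in the shortest of 4 equal classes of transcript length and 0.49 in the longest, over the 94.9% of genes with a length. The same medians for PH minus normal were 0.03 and -0.12. Each set held 2 normal and 2 PH libraries, so every difference could be taken within a set as well, and all 621 genes called had the same sign in both, which calling over all 8 libraries favours. PH library 1 stood apart from the other PH libraries in the genes of cell division described below. Depth is unknown because FPKM keeps no read count, and some genes that every cell uses were listed near or at 0 in all 8 libraries (Gapdh 0.30 to 0.73, Ppia 0 to 0.23, Hmgcs1 0), so a value of 0 may be a failed estimate.

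The hepatocyte label held in the markers. Albumin (Alb), the main plasma protein made by hepatocytes, was at 67672, 67986, 71527 and 61968 FPKM in normal libraries 1 to 4 and at 76908, 47573, 45486 and 39302 FPKM in PH libraries 1 to 4. The groups overlapped through PH library 1, and the difference was -0.41 (SE 0.24, limma adjusted p 0.357). Summed markers of other cell types were low against the study's own sorts of those cells. The highest sums were 198 FPKM over 12 Kupffer markers in PH library 2 (30540 in the Kupffer sort; 23.9 in PH library 1), 54.6 over 8 sinusoidal endothelial markers in PH library 1 (10792), 24.2 over 10 stellate and fibroblast markers in PH library 1 (23354) and 75.9 over 8 biliary markers in PH library 2 (20027), with Spp1 as the highest of these. The 10 neutrophil markers summed to 3.88 FPKM at most (4125 in the blood sort) and the 10 lymphocyte markers to 1.54. Most markers of these other types were under the filter on low values and were not tested. Tested were 3 of 8 biliary, 2 of 8 endothelial and 3 of 8 sinusoidal endothelial markers. Of Kupffer markers 4 of 12 were tested, and of stellate and fibroblast markers 3 of 10. Of the erythroid and platelet markers 1 of 12 was tested, and of the neutrophil, lymphocyte and mesothelial markers 0. None of those tested was called in either direction apart from Alas2, a haem synthesis enzyme best known from erythroid cells. Untested markers could differ without a call. Alas2 fell from a mean of 113 to 40.4 FPKM while the haemoglobin genes were listed at 0 or near it. It was not called without normal library 1 or 4, adjusted p up to 0.0571. In bulk RNA, fewer cells of a type and less RNA per cell cannot be told apart.

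Of the 10029 genes, 621 were called (6.19%), 179 higher (1.78%) and 442 lower (4.41%) after PH. The shares of 1.78% and 4.41% are those to set beside the counts of each list below. Without overlap between the groups, 500 genes (4.99%) were higher in every PH library than in any normal one and 1322 (13.2%) lower. The median difference of all genes was -0.07. Under quantile normalization, which set that median to 0.01, 236 genes were higher and 332 lower, so the share of rises among calls went from 28.8% to 41.5%. Counts also moved when single libraries were left out, from 302 calls without PH library 4 to 687 without PH library 1. Within the library sets the same model called 43 higher and 105 lower in the 4 of smaller sum (10385 genes tested). It called 546 and 1115 in the 4 of larger sum (9736 genes tested). In every fit on fewer libraries, the filter asked for 1 FPKM in only as many libraries as the smaller group held. The genes tested, and the adjustment over them, therefore differed from those of the main fit. Below, "robust" is said of a call that stayed under 0.05 without any 1 library. Where a call was lost, each library whose removal alone ended it is named, with the highest adjusted p among these fits.

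**Figure D1:**
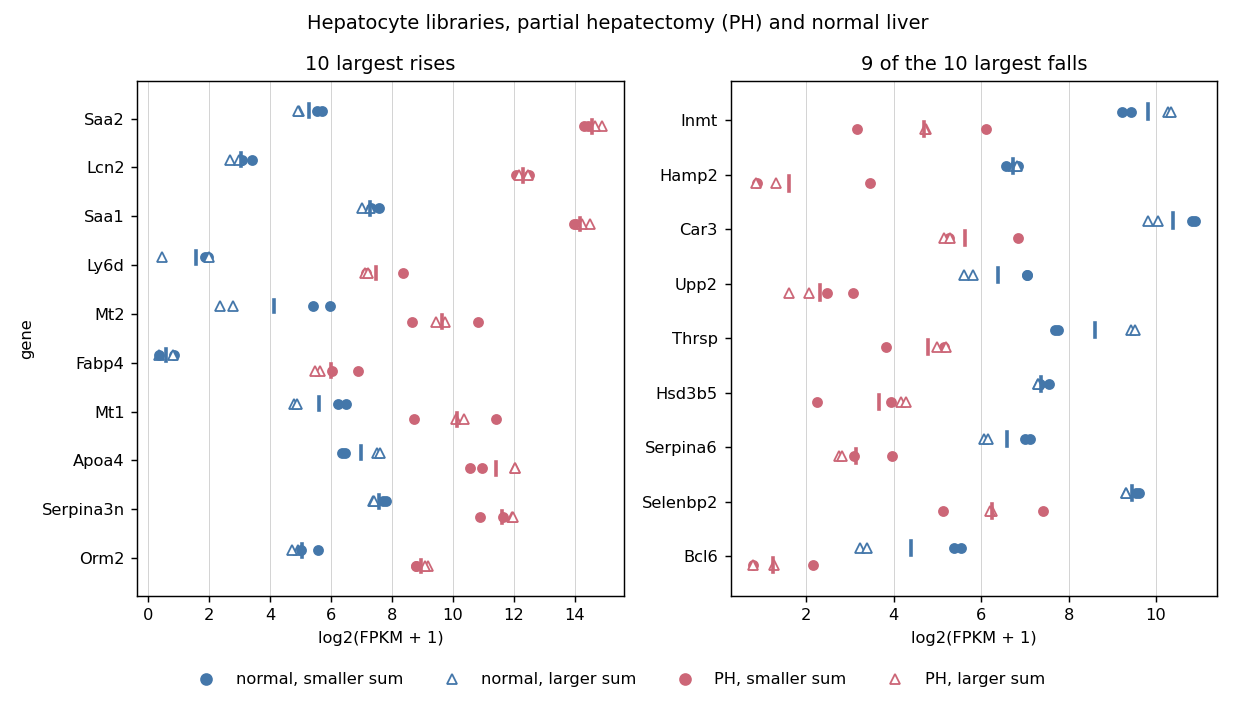
Levels of the 10 genes with the largest rises and 9 of the 10 with the largest falls without overlap between groups. Predicted genes (Gm and Rik names) and microRNAs were left out. The horizontal axis gives log2(FPKM + 1) per library. Blue stands for normal and red for PH, filled circles for the 4 libraries of smaller summed FPKM and open triangles for the 4 of larger sum, and vertical bars for group means. Saa2 and Lcn2 rose by 9.30 and 9.27 on the log2 scale, Inmt fell by 5.13 and Hamp2 fell by 5.12, and PH library 1 lies away from the other PH libraries in Hamp2 and Car3.

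The acute phase proteins, secreted by the liver in inflammation and injury, were the group with the most rises. Of 36 members 33 were tested, 20 rose (60.6%) and none fell, and 17 of the rises were robust. The median was 1.74, against -0.07 over all genes, and it was 1.42 and 2.0 within the smaller-sum and larger-sum libraries. Together the 36 genes made up 3.93% to 4.83% of the summed FPKM (1 row per gene) in normal libraries and 15.0% to 23.1% in PH libraries, lowest of the 4 in PH library 1.

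Serum amyloid A2 (Saa2, on mm9 at chr7:54007203-54009684), an apolipoprotein of the acute phase, was at 29.6, 50.7, 45.1 and 29.0 FPKM in normal libraries and at 20080, 21968, 30373 and 25731 FPKM in PH libraries. The 4 PH levels lay close together and far above the normal ones, a difference of 9.30 (SE 0.25, limma adjusted p 2.98e-08). Saa1, whose promoter is printed beside that of Saa2, was at 128, 189, 159 and 153 FPKM in normal and at 15939, 17003, 22999 and 19289 FPKM in PH libraries (6.89, SE 0.21, limma adjusted p 6.31e-08). Both genes ended at like levels from different starts, though reads shared by such close copies could have been split between them. As a share of the summed FPKM the pair rose from at most 0.0376% to at least 4.87%. Of the related genes, Saa3 rose by 1.91 (SE 0.34, limma adjusted p 0.0105) to 85.6 FPKM at most, in PH library 2. Saa4, known as the form made without inflammation, had a mean of 180 FPKM in normal and 189 FPKM in PH libraries (0.06, SE 0.23, limma adjusted p 0.912), and its groups overlapped.

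Lipocalin 2 (Lcn2, on mm9 at chr2:32240157-32243259) binds bacterial siderophores and is also known from neutrophil granules. It was at 5.49, 7.40, 9.62 and 6.84 FPKM in normal and at 4324, 5773, 4635 and 5620 FPKM in PH libraries (9.27, SE 0.22, limma adjusted p 1.21e-08). The spread of Lcn2 among PH libraries was small against its difference. All 10 neutrophil markers together summed to 3.88 FPKM at most in normal and 1.06 in PH libraries. Of these, the granule genes Ngp, Ltf and Camp were at 0.08 FPKM or less in every hepatocyte library. Prtn3, a granule gene outside that marker list, rose, as given below. Whether neutrophils had a part in the Lcn2 levels was not tested.

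Metallothioneins, which bind zinc and copper, rose with wide spread. Mt2 was at 5.89, 60.9, 41.7 and 4.09 FPKM in normal and at 401, 1795, 691 and 851 FPKM in PH libraries (5.53, SE 0.81, limma adjusted p 0.00432). Its normal levels divided by library set, and its difference was 4.05 in the smaller-sum and 7.02 in the larger-sum libraries. Mt1 rose by 4.55 (SE 0.58, limma adjusted p 0.00214), from a mean of 54.6 ± 32.1 (SD, n = 4) to 1383 ± 957 FPKM (SD, n = 4).

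Protease inhibitors and binding proteins of plasma were among the rises. Serpina3n, an inhibitor of serine proteases, was at 164, 221, 208 and 170 FPKM in normal and at 1882, 3214, 3888 and 4054 FPKM in PH libraries (4.04, SE 0.27, limma adjusted p 4.72e-05), lowest of the PH libraries in library 1. Haptoglobin (Hp), which captures free haemoglobin, went from 2693, 2645, 2405 and 2731 FPKM to 9848, 15807, 18638 and 19997 FPKM (2.57, SE 0.25, limma adjusted p 0.00048). Haemopexin (Hpx), which captures haem, rose by 1.83 (SE 0.26, limma adjusted p 0.00349) to a mean of 23386 FPKM, close to that of Saa2. The orosomucoids, drug-binding plasma glycoproteins, all rose: Orm2 by 3.9, Orm1 by 2.35 and Orm3 by 1.23, with Orm1 the most abundant at a mean of 9131 FPKM after PH (Orm3 not called without normal library 1, 3 or 4 or PH library 1, 3 or 4, adjusted p up to 0.13). Serum amyloid P (Apcs) rose by 3.88 and fibrinogen-like 1 (Fgl1), a secreted hepatokine, by 3.81, both robust. Serpina3m, Itih3 and Steap4 rose by 3.05, 1.87 and 2.0.

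Fibrinogen, the clotting protein made of 3 chains, moved less. Fgg and Fgb rose by 1.29 and 1.27 (limma adjusted p 0.0143 and 0.024), and Fga, at 1.26 (SE 0.33), had an adjusted p of 0.0519 although every PH library was above every normal one. Such a separation was seen for 4.99% of all genes. Fgg was not called without normal library 1, adjusted p 0.0503, and Fgb was not called without normal library 1, 2 or 4 or PH library 4, adjusted p up to 0.0755. All 3 chains were highest in PH library 2.

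Several textbook acute phase genes did not pass, and in most of them PH library 1 was at or below the normal level. Leucine-rich alpha-2-glycoprotein (Lrg1) was at 335, 258, 291 and 369 FPKM in normal and at 265, 1193, 1656 and 2240 FPKM in PH libraries (1.74, SE 0.56, limma adjusted p 0.107). Itih4 gave the same order, at 659 FPKM in PH library 1 and 2883, 4047 and 3709 in the others against 647 to 769 in normal libraries (limma adjusted p 0.0781). The endotoxin-binding protein Lbp was at 24.8 FPKM in PH library 1, below all normal libraries, and at 87.7, 111 and 95.8 in the others, above them. Complement C3 followed the same pattern, at 1365 FPKM in PH library 1 and 3444 to 4361 in the other PH libraries against 2436 to 2898. C-reactive protein (Crp), a weak acute phase reactant in mice, had a mean of 360 FPKM in normal and 525 FPKM in PH libraries (0.52, SE 0.21, limma adjusted p 0.184). Without PH library 1, 23 of 33 acute phase members were called higher and the median was 2.03.

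Signalling genes upstream of these proteins moved in small numbers. Of 36 cytokine signalling genes 29 were tested, 2 rose and 2 fell, with a median of -0.09. That is 6.9% in each direction, against 1.78% higher and 4.41% lower over all genes. The IL-1 receptor Il1r1 rose from 4.52, 7.90, 7.54 and 4.06 FPKM to 17.9, 28.6, 15.5 and 28.7 FPKM (1.75, SE 0.28, limma adjusted p 0.00705), and its co-receptor Il1rap had a mean of 68.5 FPKM in normal and 35.0 FPKM in PH libraries without passing (limma adjusted p 0.142). Cish, an inhibitor induced by STAT5, rose by 2.02 (SE 0.50, limma adjusted p 0.0433), but was not called without normal library 1, 2, 3 or 4 or PH library 3 or 4, adjusted p up to 0.127. STAT5 itself was lower: Stat5b fell by 1.19 (SE 0.22, limma adjusted p 0.012) from 15.1, 21.9, 21.4 and 15.4 FPKM to 5.69, 7.98, 9.48 and 6.96 FPKM. Stat5a fell by 0.83 (limma adjusted p 0.0499), and was not called once any 1 of the 8 libraries was left out, with an adjusted p up to 0.147 (without normal library 3). The IL-6 receptor chains Il6ra and Il6st differed by 0.03 and -0.14 (SE 0.46 and 0.31). Stat3 was at 15.7 FPKM in PH library 1 and at 38.7 to 53.3 in the others, against 22.7 to 26.7 in normal libraries (0.48, SE 0.34, limma adjusted p 0.459).

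Immediate early genes, the first transcripts induced by growth signals and by tissue handling, were mostly not higher. Of 29 members 24 were tested, 1 rose and 4 fell, with a median of -0.50. The shares were 4.17% higher and 16.7% lower, against 1.78% and 4.41% over all genes. Myc, a transcription factor of growth, rose from a mean of 1.51 to 6.0 FPKM (1.46, SE 0.33, limma adjusted p 0.0309; not called without normal library 1, 2 or 4 or PH library 4, adjusted p up to 0.0902). The phosphatase Dusp1, which switches off MAP kinases, fell from 90.4, 123, 134 and 90.1 FPKM to 31.3, 41.0, 32.1 and 28.2 FPKM (-1.68, SE 0.21, limma adjusted p 0.00212), and Jund, an AP-1 subunit, fell by 1.47 (SE 0.22, limma adjusted p 0.00469). Both falls were robust, with no overlap between groups. Fos and Jun had differences of -0.57 and -0.60 with SEs of 0.79 and 0.62. Fos was at 120 FPKM in PH library 1 and 7.17 in PH library 3, so the PH group alone spanned more than the normal one.

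Of 30 G1 genes 22 were tested, 2 of them under 1 FPKM in every normal library, and 3 rose (Ccnd1, Ccne1 and the phosphatase Cdc25a), of which Ccne1 alone was robust; none fell. Cdc25a was not called without normal library 1, 2, 3 or 4 or PH library 2, 3 or 4, adjusted p up to 0.106. Cyclin D1 (Ccnd1), the regulator that starts G1 in hepatocytes, was at 6.73, 13, 15.9 and 7.88 FPKM in normal and at 47.2, 21.1, 45.6 and 39.7 FPKM in PH libraries (1.74, SE 0.33, limma adjusted p 0.0145; not called without PH library 4, adjusted p 0.0528). Cyclin E1 (Ccne1), which acts at the start of S phase, was at 0.37 to 0.68 FPKM in normal and at 13.2, 2.70, 5.84 and 5.2 FPKM in PH libraries (2.18, SE 0.35, limma adjusted p 0.00682), and so passed the filter through the PH group alone. Library 1 was the highest of the PH libraries for both and library 2 the lowest. The inhibitor p21 (Cdkn1a) was at 6.17 to 14.7 FPKM in normal and 20.1 to 22.3 FPKM in PH libraries without overlap, with an adjusted p of 0.0544 (0.97, SE 0.25). Of all genes 4.99% were higher without overlap.

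Replication genes differed by unequal amounts between PH libraries. Of 51 S phase genes 42 were tested, 1 of them under 1 FPKM in every normal library, and 8 rose (19%), with none lower and a median of 1.08. Only Mcm2 and Ung were robust, and the count of rises went from 2 without normal library 2 or 3 or PH library 4, and 3 without normal library 1 or 4, to 14 without PH library 2. The mean log2(FPKM + 1) over all 51 genes was 1.92, 1.8, 1.74 and 1.91 in normal and 4.05, 2.08, 2.58 and 2.57 in PH libraries. PH library 1 was thus far above the rest and PH library 2 just above the normal range. Without PH library 1, 9 members were higher and 1 lower with a median of 0.60.

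The MCM helicase, loaded on DNA before replication, gave 5 of the 8 calls. Mcm6 was at 2.12, 2.86, 2.83 and 2.52 FPKM in normal and at 66.7, 6.87, 12.7 and 13.6 FPKM in PH libraries (2.34, SE 0.55, limma adjusted p 0.0342), and the promoter printed above holds 3 matches of the E2F letters. Mcm5 was at 2.11, 1.12, 1.26 and 1.55 FPKM in normal and at 24.8, 3.68, 11.1 and 9.77 FPKM in PH libraries (2.17, SE 0.43, limma adjusted p 0.0181). Mcm2, Mcm3 and Mcm4 rose by 1.66, 1.75 and 1.56. Their groups did not overlap. Mcm5 was not called without normal library 2 or 3 or PH library 4, adjusted p up to 0.0567. Mcm3 was not called without normal library 1, 2, 3 or 4 or PH library 3 or 4, adjusted p up to 0.0766, and the same 6 removals ended the calls of Mcm4 and Mcm6 (adjusted p up to 0.126 and 0.0897). Uracil-DNA glycosylase (Ung), a repair enzyme of replicating DNA, rose by 1.84 (SE 0.26, limma adjusted p 0.00328) and was highest in PH library 3, not 1. The sliding clamp Pcna was at 93.6 FPKM in PH library 1 and at 11.6, 11.6 and 12.8 in the other PH libraries, against 9.84 to 10.6 in normal ones (0.92, SE 0.58, limma adjusted p 0.402).

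Many mitotic genes were far higher in PH library 1 than in the other libraries. Of 48 members 16 passed the filter on low values and none was called by limma with all 8 libraries; 4 were called lower without PH library 1, where the median went from 0.52 to -0.19. The securin Pttg1, which holds sister chromatids together until anaphase, had the smallest p of the list and was lower in every PH library, at 58.0, 46.3, 39.6 and 63.8 FPKM in normal and 36.1, 28.1, 33.7 and 37.3 FPKM in PH libraries (-0.59, SE 0.21, limma adjusted p 0.138). The same held for 13.2% of all genes. The proliferation marker Mki67 was at 16.9 FPKM in PH library 1 and at 0.58, 0.09 and 0.18 in PH libraries 2 to 4, against 0.18 to 1.21 in normal libraries. Topoisomerase Top2a was at 38.6 FPKM there, and at 0.70 to 1.34 in the other PH and 0.31 to 0.93 in the normal libraries. The kinase Cdk1 was at 38.5 FPKM there and at 1.0 to 2.45 in the other PH libraries. Summed over the list, PH library 1 had 703 FPKM and PH libraries 2 to 4 had 70.3, 69.6 and 78.2, against 87.7 to 110 in normal libraries. After PH the mitosis sum was 91.7 to 160 FPKM in the 5 sinusoidal endothelial, 95.9 to 147 in the 3 stellate and 111 to 873 in the 3 Kupffer libraries. Markers of these types summed to 54.6, 24.2 and 23.9 FPKM in PH library 1. Of the duct sorts after PH, the mitosis sum was 263 to 526 FPKM in the 2 libraries labelled NPD. It was 53.4 to 67.4 in the 2 labelled BEC and 63.7 to 65.1 in the 2 labelled cBEC. Biliary markers summed to 61.1 FPKM in PH library 1. The part of any of these cells in the mitotic levels of PH library 1 was not tested. The labels do not set that library apart.

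**Figure D2:**
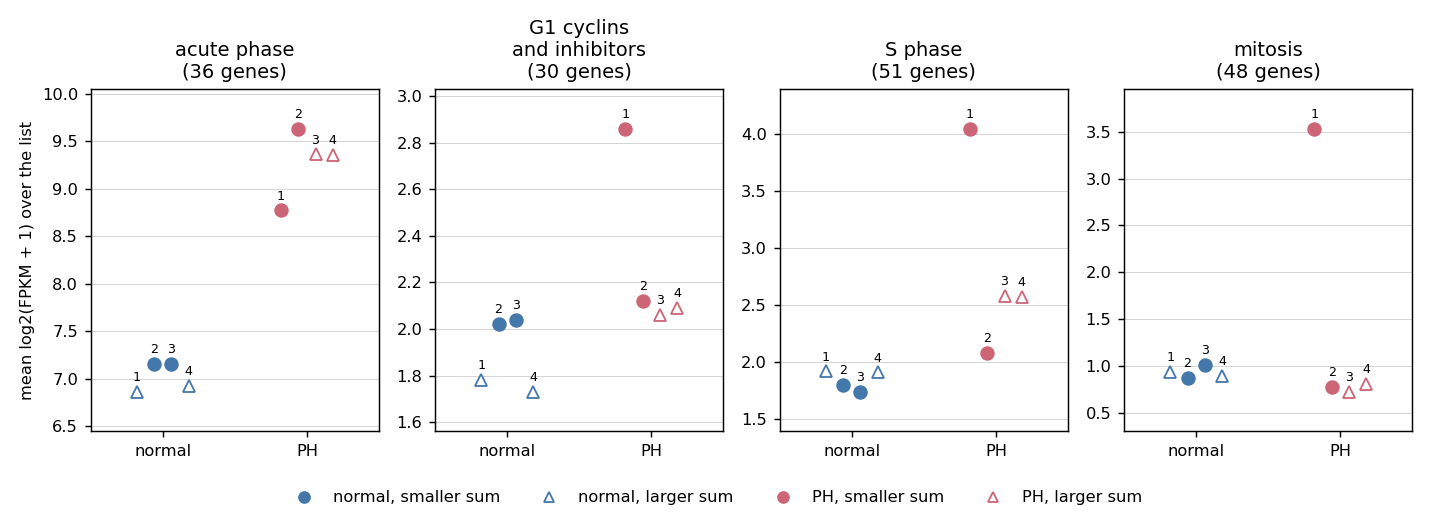
Mean log2(FPKM + 1) over all listed members of 4 gene lists (vertical axis) in each library, numbered by replicate, with normal libraries in blue and PH libraries in red. Filled circles are the 4 libraries of smaller summed FPKM and open triangles the 4 of larger sum. The acute phase mean was lowest among PH libraries in library 1, and that library had the highest G1, S phase and mitosis means (mitosis 3.53 against 0.73 to 0.81 in the other PH libraries).

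Cytochrome P450 enzymes of families 1 to 4, which oxidise drugs, steroids and fatty acids, were among the groups with the most falls. Of 62 members 50 were tested, 19 fell (38%) and 4 rose, with a median of -0.94; 7 of the falls and 3 of the rises were robust, and the falls numbered 7 without normal library 2 or PH library 4, 8 without normal library 3 and 12 without PH library 3. Reads of these closely related genes could have been shared between members. Cyp2a5, a coumarin hydroxylase, fell from 50.6, 122, 129 and 59.9 FPKM to 32.2, 13.3, 3.30 and 3.41 FPKM (-3.11, SE 0.64, limma adjusted p 0.0203; not called without normal library 2 or 3 or PH library 4, adjusted p up to 0.0647). Cyp2c70, which makes the muricholic acids of mice, fell from 471, 944, 927 and 461 FPKM to 211, 96.0, 115 and 114 FPKM (-2.36, SE 0.34, limma adjusted p 0.00413). Cyp1a2 and Cyp2e1, drug-metabolising enzymes of central hepatocytes, had differences of -2.16 and -1.46, both falls, and both were not called without normal library 2 or 3 or PH library 4, adjusted p up to 0.0571 and 0.075. Cyp2f2, of portal hepatocytes, fell from 1893, 1882, 2082 and 2086 FPKM to 358, 455, 909 and 782 FPKM (-1.76, SE 0.30, limma adjusted p 0.00883).

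The Cyp4a enzymes, omega-hydroxylases of fatty acids, went in opposite directions. Cyp4a10 rose from 184, 254, 200 and 173 FPKM to 647, 518, 531 and 443 FPKM (1.40, SE 0.21, limma adjusted p 0.00493). Cyp4a14 and Cyp4a31 rose by 1.88 and 1.89. Cyp4a12a, the form known to be higher in males, fell by 1.42 (SE 0.25, limma adjusted p 0.0109). Cyp3a11, the main drug-metabolising member, was at 4561 FPKM in PH library 1 and at 374, 440 and 550 in the others, against 1485 to 3288 in normal libraries (-1.48, SE 0.72, limma adjusted p 0.271).

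Of conjugating enzymes 19 of 54 tested fell (35.2%) and 1 rose, with a median of -0.83, but 3 of the falls were robust. The falls numbered 3 without PH library 4, 5 without normal library 1 or PH library 2, and 6 to 9 without normal library 2, 3 or 4 or PH library 3; without PH library 1 there were 19. Of the falls 7 are Ugt1a transcripts, which share exons and cannot be counted as separate genes. Inmt, a methyltransferase of small amines (mm9 chr6:55120621-55124984), had the largest fall among called genes without overlap, with predicted genes, pseudogenes and microRNAs left out. Its levels were 1243, 683, 600 and 1305 FPKM in normal and 68.5, 8.0, 25.7 and 25.4 FPKM in PH libraries (-5.13, SE 0.55, limma adjusted p 0.000731). Gsta3, a glutathione transferase, fell by 1.96 (SE 0.25, limma adjusted p 0.00221). In contrast Nnmt, which methylates nicotinamide, rose from 356, 135, 94.7 and 364 FPKM to 1066, 543, 863 and 931 FPKM (2.03, SE 0.45, limma adjusted p 0.0282; not called without normal library 2 or 3 or PH library 1, 3 or 4, adjusted p up to 0.0855).

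Of 49 genes of the urea cycle and amino acid catabolism 11 fell (22.4%), 7 of them robust, and none rose (median -0.69; 7 falls without normal library 1). Of the urea cycle, only argininosuccinate synthase (Ass1) passed, at 1363, 664, 629 and 1286 FPKM in normal and 195, 164, 417 and 382 FPKM in PH libraries (-1.79, SE 0.39, limma adjusted p 0.0267; not called without normal library 1 or 4 or PH library 1 or 2, adjusted p up to 0.0784). Cps1, the first enzyme of the cycle, had means of 1340 and 956 FPKM without overlap and did not pass (-0.45, SE 0.22, limma adjusted p 0.278), and Arg1 was at 0.45 (SE 0.24). Of all genes 13.2% were lower without overlap. Enzymes on both sides of glutamine fell: Gls2, which splits it in portal cells, fell by 1.91 (SE 0.30, limma adjusted p 0.00655), and Glul, which makes it in central cells, fell from 158, 241, 273 and 177 FPKM to 102, 38.1, 38.5 and 25.6 FPKM (-2.20, SE 0.39, limma adjusted p 0.0105).

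By position in the lobule, 6 of 25 pericentral genes fell and 1 rose (median -0.62), and 4 of 27 periportal genes fell and 2 rose (median -0.36); whether the 2 lists differ was not tested. In each list 2 falls were robust, as were both periportal rises. The pericentral falls numbered 2 without normal library 2 or 3 or PH library 4, and the periportal falls 6 without PH library 3 or 3 to 5 in the other removals. The pericentral rise, Nr1i3, was not called without normal library 1, 2, 3 or 4 or PH library 2, 3 or 4, adjusted p up to 0.131. Rhbg, an ammonium transporter of central cells, fell from 6.16, 10.9, 10.2 and 9.93 FPKM to 1.79, 1.24, 1.01 and 0.88 FPKM (-2.20, SE 0.23, limma adjusted p 0.000559). Axin2, a direct target of Wnt signalling, had means of 1.51 and 1.07 FPKM (-0.25, SE 0.26, limma adjusted p 0.639). Of the portal rises, Mfsd2a, a transporter of lysophospholipids, went from 8.02, 6.06, 4.23 and 5.29 FPKM to 28.7, 26.1, 39.5 and 43.2 FPKM (2.36, SE 0.24, limma adjusted p 0.000559).

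All 29 tested genes of fatty acid and triglyceride synthesis had negative differences, 13 fell (44.8%), 7 of them robust (7 falls without PH library 4, 8 without normal library 2 or 3 or PH library 3), and the median was -0.88 (-1.08 and -0.91 within the smaller-sum and larger-sum libraries). Thrsp, a regulator of lipogenesis, fell from 691, 206, 214 and 733 FPKM to 34.3, 13.3, 35.4 and 30.7 FPKM (-3.81, SE 0.50, limma adjusted p 0.00231). Stearoyl-CoA desaturase (Scd1) was nearly constant in normal libraries at 1388, 1365, 1327 and 1325 FPKM and fell to 86.3, 377, 280 and 246 FPKM (-2.63, SE 0.40, limma adjusted p 0.00502). Fatty acid synthase (Fasn) fell by 2.51 (SE 0.43, limma adjusted p 0.00864) from a mean of 80.9 to 14.6 FPKM, and acetyl-CoA carboxylase 2 (Acacb) fell by 2.24 (SE 0.29, limma adjusted p 0.00221). Scd1, Fasn and Acacb, were lowest in PH library 1, whereas Thrsp was lowest in PH library 2.

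The transcription factors of lipogenesis fell too. Srebf1, which answers to insulin and sterols, was at 77.4, 80.9, 82.4 and 82.9 FPKM in normal and at 14.5, 10.6, 18.7 and 16.6 FPKM in PH libraries (-2.37, SE 0.21, limma adjusted p 0.000231). Mlxipl (ChREBP), which answers to glucose, fell by 2.29 (SE 0.55, limma adjusted p 0.0389; not called without normal library 2 or 3 or PH library 1, 2, 3 or 4, adjusted p up to 0.106). Among 25 genes of glucose and glycogen 4 fell and none rose, among them Pygl, glycogen phosphorylase (-1.76, SE 0.18), Pklr, pyruvate kinase (-1.62, SE 0.28) and Ppp1r3b, and all 4 were robust. The gluconeogenic enzymes did not pass: Pck1 had means of 1036 and 1728 FPKM (0.72, SE 0.26, limma adjusted p 0.146) and G6pc 354 and 332 FPKM. In glycolysis, 2 of 11 tested rose: Pfkfb3 (under 1 FPKM in every normal library), which makes the activator of phosphofructokinase, from 0.92 to 0.96 FPKM in normal to 3.66 to 4.91 FPKM in PH libraries, and Ldha (1.53, SE 0.29, limma adjusted p 0.0132; not called without PH library 4, adjusted p 0.0516).

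Fat oxidation and lipid droplet genes had more rises than falls, 7 against 1 of 42 tested, with a median of 0.24; 4 of the rises were robust, and they numbered 4 without normal library 1 or 4 or PH library 2 or 4. Fabp4, a fatty acid binding protein best known from adipocytes and macrophages, was at 0.29, 0.29, 0.79 and 0.76 FPKM in normal and at 119, 63.8, 48.3 and 43.5 FPKM in PH libraries (5.41, SE 0.31, limma adjusted p 1.78e-05), so it passed the filter through the PH group alone. Kupffer markers were highest in PH library 2 and endothelial markers in PH library 1, and their part in Fabp4 was not tested. Cidec, a lipid droplet protein, rose from 0.64 to 1.15 FPKM in normal to 6.88 to 9.95 FPKM in PH libraries (2.29, SE 0.20, limma adjusted p 0.000231). Ucp2, a mitochondrial carrier, rose by 2.05 (SE 0.36, limma adjusted p 0.0101). Cpt1a, which admits fatty acids to mitochondria, differed by -0.33 (SE 0.35) with overlap. The only fall was Acaa1b, a peroxisomal thiolase (-2.14, SE 0.33, limma adjusted p 0.00542).

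Lipoprotein genes gave 2 rises and 2 falls of 24, with 1 of each robust; the other rise, Apoc2, was not called without normal library 1, 2 or 3 or PH library 1, 3 or 4, adjusted p up to 0.13. Apoa4, an apolipoprotein of triglyceride-rich particles, was at 181, 80.7, 87.6 and 192 FPKM in normal and at 2004, 1497, 4171 and 4222 FPKM in PH libraries (4.42, SE 0.43, limma adjusted p 0.00048). Its difference was 4.35 and 4.49 within the 2 library sets. Angptl8, an inhibitor of lipoprotein lipase induced by feeding, fell by 1.54 (SE 0.33, limma adjusted p 0.0249; not called without normal library 2 or 3 or PH library 3 or 4, adjusted p up to 0.0757), and the lipase Lipc fell by 1.28 (SE 0.22, limma adjusted p 0.00826). Of cholesterol synthesis and uptake, 1 of 24 fell, Insig1, which holds back sterol synthesis (-1.45, SE 0.29, limma adjusted p 0.0181; not called without normal library 1, 2 or 3 or PH library 4, adjusted p up to 0.0619). The list's median was -0.35 with all libraries and 0.09 without PH library 1. Sqle, squalene epoxidase, was lower in PH library 1 than in any other library, at 13.2 FPKM.

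Bile acid genes fell in 6 of 32 cases, 4 of them robust, with a median of -0.46. Cyp27a1, which opens the acidic pathway of synthesis, fell from 296, 330, 305 and 346 FPKM to 56.9, 73.5, 96.2 and 98.4 FPKM (-1.99, SE 0.22, limma adjusted p 0.00086). Cyp7a1, the rate-limiting enzyme of the classic pathway, was at 12.3 and 7.59 FPKM in PH libraries 1 and 2 and at 0.32 and 0.51 in PH libraries 3 and 4, against 2.07 to 9.44 in normal libraries (-0.64, SE 0.77, limma adjusted p 0.687). Its PH levels divided with the library sets. The nuclear receptor SHP (Nr0b2), which represses it, fell by 1.63 (SE 0.27, limma adjusted p 0.00799). The uptake and export carriers Slc10a1 and Abcb11 were lower in every PH library than in any normal one, as were 13.2% of all genes. Neither was called, with limma adjusted p of 0.0799 and 0.0542.

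**Figure D3:**
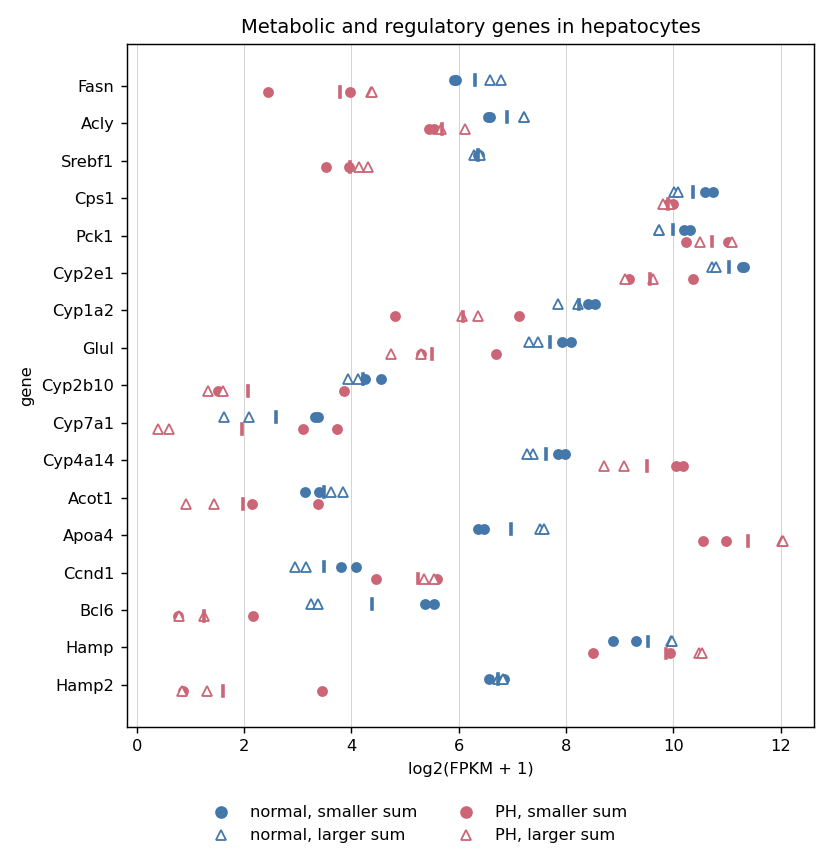
Levels of 17 metabolic and regulatory genes as log2(FPKM + 1) on the horizontal axis in each library, with symbols as in the plot of the largest changes and bars for group means. Fasn, Srebf1, Bcl6 and Hamp2 do not overlap between groups, Cps1 separates by a small distance, and Cyp7a1, Pck1 and Hamp overlap.

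Of 27 plasma carrier proteins 4 fell (14.8%), 3 of them robust, and none rose (median -0.38). Serpina6, the carrier of corticosteroids, was at 66.1, 128, 138 and 70.6 FPKM in normal and 14.5, 7.53, 5.70 and 6.0 FPKM in PH libraries (-3.44, SE 0.34, limma adjusted p 0.000535). Lifr, a cytokine receptor whose soluble form circulates in mice, fell by 2.54 (SE 0.28, limma adjusted p 0.000866). Transthyretin (Ttr) had means of 7811 and 4292 FPKM and fell by 0.85 (SE 0.20, limma adjusted p 0.0328), but was not called without normal library 1, 2, 3 or 4 or PH library 2, 3 or 4, adjusted p up to 0.101. Serpina1a, the antitrypsin gene, had means of 700.0 and 736 FPKM (0.11, SE 0.24). In complement and coagulation, 6 of 37 fell and 2 rose; C2, a protease of the classical pathway, fell by 1.70 (SE 0.19, limma adjusted p 0.00102), and it alone of these 8 calls was robust. The falls numbered 1 without normal library 3 or PH library 2 or 4, 2 without normal library 2 and 3 without normal library 4, and no rise was called without normal library 1, 3 or 4 or PH library 2 or 4.

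Among 28 iron and haem genes Hp and Hpx, given above, rose and Hamp2, a paralog of hepcidin, fell. Hamp2 (mm9 chr7:31707391-31709200) was at 105, 113, 93.1 and 112 FPKM in normal and at 9.91, 0.83, 1.47 and 0.79 FPKM in PH libraries (-5.12, SE 0.51, limma adjusted p 0.000535). Hamp, the hormone that blocks iron release, was at 991, 634, 467 and 1001 FPKM in normal and at 974, 359, 1414 and 1476 FPKM in PH libraries (0.33, SE 0.46, limma adjusted p 0.736). The 2 genes are close in sequence, so reads could have been divided unequally between them. Ferroportin (Slc40a1) and hemojuvelin (Hfe2) differed by -0.16 and -0.41 (SE 0.28 and 0.21).

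Hepatocyte transcription factors gave 7 falls and 1 rise of 34 (median -0.37), with 3 of the falls robust (3 without PH library 4, 4 without normal library 1 or 3 or PH library 2). Bcl6, a repressor known to hold down female-biased and fat oxidation genes in male liver, fell from 8.44, 40.6, 45.7 and 9.41 FPKM to 0.71, 3.47, 0.72 and 1.40 FPKM (-3.14, SE 0.57, limma adjusted p 0.0116). Cebpa, a factor of the quiescent hepatocyte, fell by 1.5 (SE 0.35, limma adjusted p 0.0347; not called without normal library 1 or 4 or PH library 1, 2 or 4, adjusted p up to 0.0978), while Cebpb had means of 44.9 and 35.3 FPKM (-0.35, SE 0.27, limma adjusted p 0.5). Hnf4a was at 0.13 (SE 0.19, limma adjusted p 0.747). Nr1i3 (CAR), a drug sensor, rose by 1.2 (SE 0.30, limma adjusted p 0.0451) but with overlap, and its call was lost in 7 of the 8 removals given above. Its usual target Cyp2b10 fell by 2.14 (SE 0.50, limma adjusted p 0.0349) and was at 13.5 FPKM in PH library 1 and 1.5 to 2.04 in the others, and was not called without normal library 1, 2, 3 or 4 or PH library 2, 3 or 4, adjusted p up to 0.105.

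All 21 tested genes known to be higher in male liver had negative differences, 9 fell (42.9%), 6 of them robust, with a median of -1.42. Hsd3b5, a steroid reductase of male liver, went from 157, 186, 161 and 157 FPKM to 14.2, 3.77, 17.0 and 18.5 FPKM (-3.71, SE 0.40, limma adjusted p 0.00086). Selenbp2 fell by 3.19 (SE 0.40, limma adjusted p 0.00214) and Elovl3, a fatty acid elongase, fell by 2.07 (SE 0.21, limma adjusted p 0.000535). Of 9 female-biased genes tested 3 rose and 2 fell; the rises were Cyp4a14 and Cyp4a10, given above, and Cyp17a1, and the falls were Cyp2b10 and Cyp2a4. Cyp17a1 was not called without normal library 2 or 3, adjusted p up to 0.0593, and Cyp2a4 was not called without normal library 2 or 3 or PH library 1 or 4, adjusted p up to 0.0725. All 8 libraries had RNA of Y-linked Ddx3y (3.29 to 29.2 FPKM) and Xist at 0.06 FPKM at most. Growth hormone, whose pulses set the male pattern, is known to act through Ghr and Stat5b. Ghr fell by 1.02 (SE 0.21, limma adjusted p 0.0193), and the fall of Stat5b is given above. The call of Ghr was lost without normal library 2 or 3 or PH library 3 or 4, adjusted p up to 0.0647. Whether Ghr or Stat5b had a part in the levels of the male-biased genes was not tested.

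Growth factor and receptor genes had 1 rise and 4 falls of 45 (median -0.32), with the rise and 2 of the falls robust; 4 rises were called without PH library 1, 6 falls without PH library 2, and 2 falls without normal library 2 or 3 or PH library 3 or 4. The TWEAK receptor Tnfrsf12a, known as a mitogenic receptor of liver cells, was at 13.5, 6.76, 6.4 and 14.5 FPKM in normal and at a narrow 78.6, 66.6, 74.7 and 73.9 FPKM in PH libraries (2.80, SE 0.28, limma adjusted p 0.000535). Met, the receptor of HGF, differed by -0.05 (SE 0.38) and Egfr by -0.47 (SE 0.24, limma adjusted p 0.294), with Egfr lower in every PH library, as were 13.2% of all genes. Igfbp2, which binds IGF, fell by 1.26 (SE 0.23, limma adjusted p 0.0129) and the Wnt receptor Fzd8 fell by 1.19 (SE 0.19, limma adjusted p 0.00625). Igf1 itself was at 0.19 (SE 0.33, limma adjusted p 0.797).

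Among fetal, progenitor and keratin genes 13 of 27 were tested, with 2 rises and 1 fall. Ly6d, a surface protein, was at 0.37, 2.86, 2.63 and 3.03 FPKM in normal and at 329, 142, 136 and 148 FPKM in PH libraries (5.89, SE 0.41, limma adjusted p 5.21e-05). S100a11, a calcium-binding protein, rose by 2.22 (SE 0.32, limma adjusted p 0.0042). Afp, the fetal albumin relative, was at 4.55 FPKM at most in PH libraries against 1.43 in normal ones (0.85, SE 0.33, limma adjusted p 0.17). In the cytoskeleton list 3 of 23 rose and none fell, and tropomyosin Tpm1 (1.45, SE 0.26, limma adjusted p 0.0112) alone was robust. Of the tubulins, Tubb5 was not called without normal library 1, 2 or 3 or PH library 1, 3 or 4, adjusted p up to 0.0846, and Tubb2a was not called once any 1 of the 8 libraries was left out, with an adjusted p up to 0.136 (without normal library 2).

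Lists of protein synthesis, turnover and respiration had few calls. The proteasome list had no call among 35, a median of 0.40 and 32 positive differences, and Psma7 had its smallest p (0.73, SE 0.23, limma adjusted p 0.0959). Oxidative phosphorylation likewise had no call among 45, a median of -0.30 and 34 negative differences, with Sdha at -0.73 (SE 0.19, limma adjusted p 0.0532). That median was -0.02 within the smaller-sum libraries, and 27 of 45 members were called lower within the larger-sum libraries. Ribosome biogenesis had 1 rise of 33, Rrs1 (0.85, SE 0.18, limma adjusted p 0.0208; not called without normal library 1, 2, 3 or 4 or PH library 3 or 4, adjusted p up to 0.0801). Of the secretory pathway and unfolded protein response, Sec11c, a signal peptidase subunit, rose by 1.01 (and was not called without normal library 1, 2, 3 or 4 or PH library 4, adjusted p up to 0.0647), and Trib3, a stress-induced pseudokinase, fell by 1.38, out of 33 tested.

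The remaining lists had few calls in number. Of the tested clock, p53, NRF2 and interferon genes 12.5%, 13.3%, 20% and 12.5% were lower, against 4.41% of all genes. Nr1d1 (REV-ERB alpha), a repressor of the clock, fell from 37.5, 53.6, 56.3 and 37.7 FPKM to 12.1, 6.24, 9.66 and 9.62 FPKM (-2.19, SE 0.24, limma adjusted p 0.000866) and Cry2 fell by 0.91 (but was not called without normal library 1, 2, 3 or 4 or PH library 2 or 4, adjusted p up to 0.101), out of 16 clock genes. Among 15 p53 targets Bbc3 (PUMA), a trigger of apoptosis, fell from 7.34 to 13.6 FPKM in normal to 1.24 to 1.65 FPKM in PH libraries (-2.21, SE 0.22, limma adjusted p 0.000535), and Plk2 fell by 1.22 (but was not called without normal library 1, 2, 3 or 4 or PH library 2, 3 or 4, adjusted p up to 0.121). Of 20 NRF2 and pentose phosphate genes 4 fell and none rose, with Osgin1 (-1.53) and G6pdx (-1.35) the largest, and none of the 4 was robust. Osgin1 was not called without normal library 1, 2, 3 or 4 or PH library 3 or 4, adjusted p up to 0.0828, and G6pdx was not called without normal library 1 or 4 or PH library 3 or 4, adjusted p up to 0.0784. Interferon genes fell in 3 of 24 cases (Irf1, Bst2 and Cxcl9), and none was robust. Irf1 was not called without normal library 1, 2, 3 or 4 or PH library 2, 3 or 4, adjusted p up to 0.125, Bst2 was not called without normal library 1, 2, 3 or 4 or PH library 2, 3 or 4, adjusted p up to 0.0938, and Cxcl9 was not called without normal library 1, 2 or 3 or PH library 1, 2, 3 or 4, adjusted p up to 0.0899. Of 30 chemokines and cytokines 10 were tested, and Cxcl1, a neutrophil attractant, rose by 2.23 (SE 0.54, limma adjusted p 0.0397) from 9.22, 47.7, 38.0 and 7.84 FPKM to 67.6, 121, 90.9 and 108 FPKM, but was not called without normal library 1 or 4 or PH library 1, 2, 3 or 4, adjusted p up to 0.109.

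**Figure D4:**
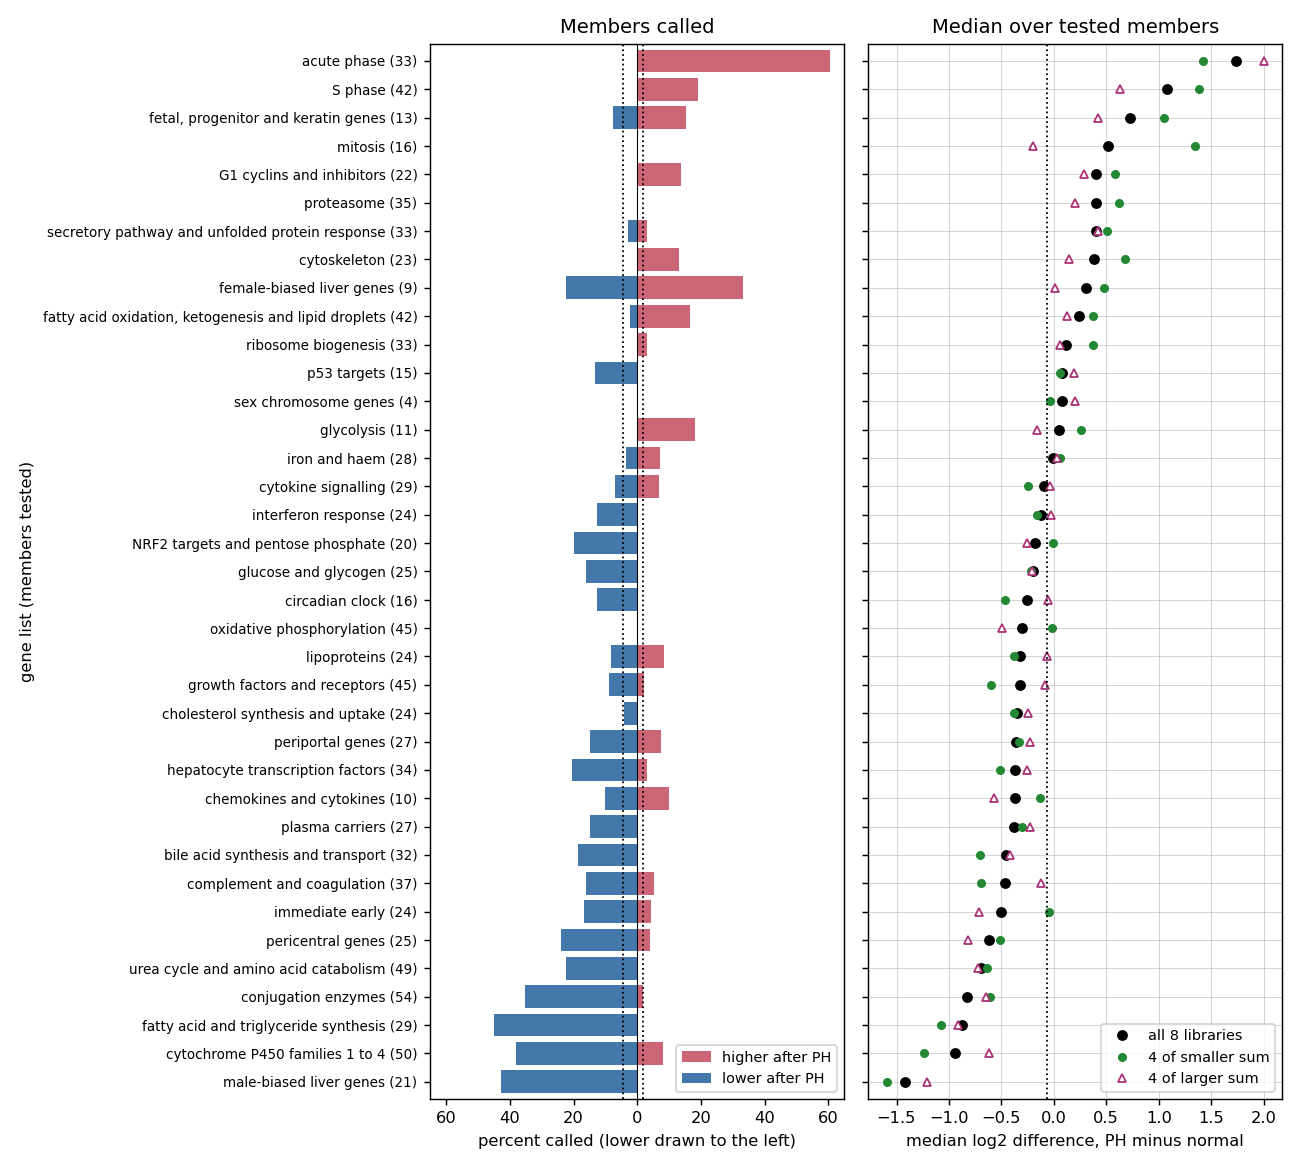
Left, percent of tested members called higher (red, to the right) or lower (blue, to the left) in 37 gene lists, ordered by median, with the number tested in brackets and dotted lines at the shares over all genes (1.78% and 4.41%). Right, the median log2 difference of the tested members with all 8 libraries (black) and within the 4 of smaller and of larger summed FPKM, with a dotted line at the median of all genes. Acute phase genes lie at the top with 60.6% called higher, and male-biased, P450 and fatty acid synthesis genes at the bottom.

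**Figure D5:**
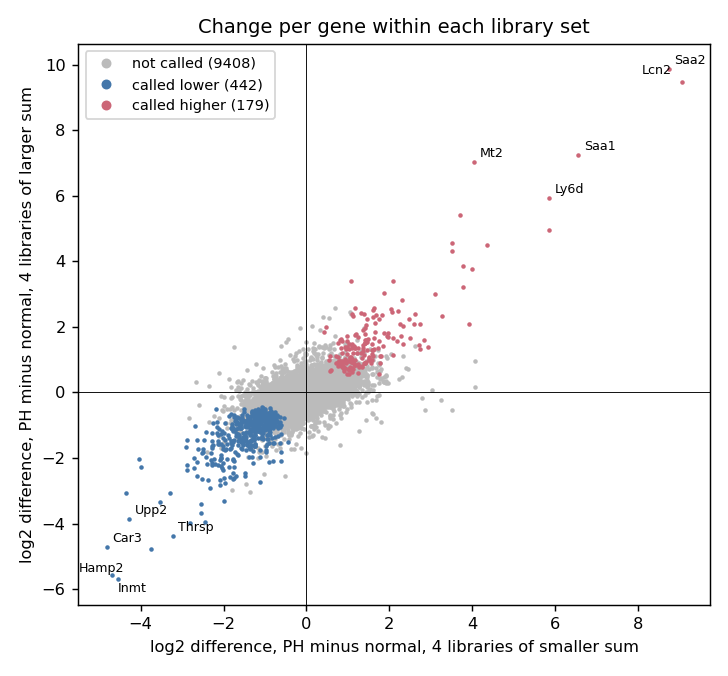
Each gene's log2 difference, PH minus normal, within the 4 libraries of smaller summed FPKM (horizontal axis) and within the 4 of larger sum (vertical axis), 2 against 2 in each. The 621 genes called with all 8 libraries, in red and blue, have the same sign on both axes.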

How the data were processed

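RNA of sorted cells was sequenced and the authors deposited FPKM values per transcript row with 2 decimals, with no counts, so the depth of each library is unknown and no counting interval can be given. Per the submitters' processing notes, CASAVA 1.8.2, Bowtie 1.0.0 and build mm9 were used; the counting tool is not given in the sources used here.

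Groups were taken from the sample labels. Of 36141 rows, 1 was kept for each of 24478 symbols, that with the largest average level in the series. Genes that reached 1 FPKM in 4 or more of the 8 libraries were tested on log2(FPKM + 1) with limma 3.58.1 in R 4.3.3 (trended and robust variance, Benjamini-Hochberg adjustment over all 10029 genes, call at an adjusted p under 0.05, no fold threshold). On simulated data for this comparison (10029 genes) the test called 16 of 50 genes changed by 1 on the log2 scale, 45 of 50 by 2, 50 of 50 by 3, 49 of 50 by 4 and 11 of 9829 unchanged ones. Changes were put only in genes with a mean log2(FPKM + 1) above 3. The simulated noise was independent between genes and libraries, so it lacked the 2 library sets, and recovery in low genes was not simulated.

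The 37 gene lists and 10 marker lists, like the comparison itself, were chosen with earlier results of these data known. Genes are named if they are among the 10 largest rises or falls without overlap, with predicted genes, pseudogenes and microRNAs left out. Also named are the 2 largest called rises or falls of a list, the smallest p in a list with no call, and markers. Other members are given for contrast. Some genes that this rule names are not reported here. Promoters come from RefSeq (GRCm38.p6) and transcript lengths from GENCODE M21. Alternatives covered the pseudocount (0.1), filters, quantile and upper-quartile normalization, the variance model, all 20 groups in 1 fit, the replicate block, a symbol's mean row and each library left out. Fits with a term for the library sets, and within each set, were added after seeing the data.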

Additional observations from a re-analysis of the deposited data

Results flagged for a closer look

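Within groups of 4 libraries, 17 of 270 sets of values had 1 library set apart from the other 3 by a gap above Dixon's 95% critical value, where chance gives about 1 in 20. PH library 1 accounted for 7 of these. Its mean log2(FPKM + 1) over the mitosis list was 3.53, against 0.73 to 0.81 in the other PH libraries, and over the G1 list 2.86, against 2.06 to 2.12. Of single genes on the same scale, it was higher in Car3 (6.85 against 5.14 to 5.28), Cyp2b10 (3.86 against 1.32 to 1.60), Ly6d (8.37 against 7.10 to 7.22) and Plk2 (3.01 against 1.98 to 2.03), and lower in Acaa1b (5.87 against 6.97 to 7.04).

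PH library 2 was lower than the other PH libraries over the oxidative phosphorylation list (7.22 against 7.72 to 7.73) and in Thrsp (3.83 against 4.99 to 5.19). Among normal libraries, library 1 was low in Ly6d (0.45 against 1.86 to 2.01). Library 2 was high in Hsd3b5 (7.55 against 7.30 to 7.34) and in the interferon factor Irf1 (4.51 against 4.24 to 4.27). Library 3 was low over the fatty acid oxidation list (5.51 against 5.61 to 5.62) and high in the endothelial marker Eng (1.60 against 0.83 to 0.93). Library 4 was low in Sdha (8.17 against 8.29 to 8.32) and had the neutrophil marker S100a8 at 1.21 and the lymphocyte marker Nkg7 at 0.65, both listed at 0 in the other 3.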

How the results depend on the processing

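The count of 179 genes higher and 442 lower was within 1.5 times in both directions with a pseudocount of 0.1, no filter, quantile or upper-quartile normalization, another variance model or mean rows. A mean of at least 10 FPKM gave 115 higher, from fewer genes tested, and 1 fit of all 20 groups gave 423 and 941. Leaving out 1 library gave 93 to 199 higher and 209 to 488 lower, the lowest counts without PH library 4 and the highest without PH library 1. Alternatives chosen after seeing the data gave 634 and 1557 with a term for the 2 library sets, 43 and 105 within the smaller-sum set, and 546 and 1115 within the larger-sum set. Upper-quartile scaling gave 208 and 343, so 37.7% of calls were higher.

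With the replicate number as a block, 97 genes were higher and 205 lower. Deviations of same-numbered libraries correlated at -0.323, 0.574, -0.672 and 0.437. Over all pairs of a normal and a PH library, the sign was positive within a library set and negative between the sets. These correlations therefore cannot tell whether the numbers pair the libraries. Of 98 named genes 85 were called, 53 of them without any 1 library as well and 52 in every planned setting that tested them. The filter of a mean of at least 10 FPKM left some of the named genes untested. None of the called differences reversed. With 4 libraries a group and unknown depth, changes near 1 on the log2 scale were often missed in simulated data (16 of 50 called).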

Other observations

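Genes outside the lists, chosen after their values were seen, also moved in all PH libraries. The leptin receptor Lepr was at 0.05, 0.24, 0.38 and 0.18 FPKM in normal libraries 1 to 4 and at 8.25, 7.11, 3.93 and 3.48 FPKM in PH libraries 1 to 4 (2.40 on the log2 scale, SE 0.26, limma adjusted p 0.000814). Il18bp, a secreted inhibitor of IL-18, rose from a mean of 3.46 to 16.2 FPKM (1.96, SE 0.25, limma adjusted p 0.00218). The chemokine Cxcl14 rose by 2.45, the tetraspanin Cd63 by 2.50 and the serine protease Prtn3, best known from neutrophil granules, by 2.74. The lectin Reg3b was listed at 0 in all 4 normal libraries and at 7.49, 5.95, 1.8 and 1.41 FPKM in PH libraries. Lepr, Cxcl14, Prtn3 and Reg3b were under 1 FPKM in every normal library, so they passed the filter on low values through the PH group alone.

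Carboxylesterases, which hydrolyse drugs and lipid esters, fell with little spread between libraries, though reads could have been shared among these close copies. Ces1d was at 351, 371, 311 and 369 FPKM in normal and 59.9, 58.1, 61.9 and 52.7 FPKM in PH libraries (-2.57, SE 0.17, limma adjusted p 4.72e-05). Ces3b fell by 1.99 and Ces1e fell by 2.12. Among other enzymes, urate oxidase (Uox) fell by 1.44 and Gamt, which makes creatine, fell by 2.18. The water channel Aqp8 fell by 2.36 and the transcriptional regulator Cited2 fell by 2.20. The G protein regulator Rgs16 fell by 3.04 (limma adjusted p 0.0181; not called without PH library 4, adjusted p 0.0625).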
